A study of Mus musculus with 3 samples.

Results

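Mature dendritic cells marked by Ccr7 and Fscn1 were described in 3 cultures of mouse dendritic cells. A cell barcode was a member when it had at least 1000 UMIs (unique molecular identifiers, 1 per captured mRNA molecule), at least 500 genes, at most 10% mitochondrial UMIs and at least 1 UMI of 3 or more of 7 markers: Ccr7, Fscn1, Ccl22, Il12b, Apol7c, Cacnb3 and Socs2. Of 28903 barcodes that passed the first 3 limits, 1331 were members. There were 277 in 50 µM glutamine, 341 in 2 mM glutamine with 1 µM DON and 713 in 2 mM glutamine, the control. The members were chosen by the UMIs of these 7 markers, so the levels of the markers are given as a description with no test.

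All 3 were dendritic cell cultures of wild-type C57BL/6 mice, grown in vitro with FLT3L, the growth factor on which dendritic cell development depends. They also held barcodes with markers of other cell types, as given below. DON is a glutamine analogue that blocks enzymes which use glutamine. Each condition was 1 library of droplet single-cell RNA sequencing, so no difference between conditions could be tested. The number of mice behind each culture is not given in the sources used here. Intervals are 95% intervals that cover counting error and not the variation between cultures or mice. Those of CPM treat the UMIs of all members as 1 pool and also leave out the spread between cells. Whether such intervals overlap is therefore a description and no test between cultures.

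When a dendritic cell matures, it stops sampling its surroundings, gains CCR7, the receptor that guides it along CCL19 and CCL21 to the T cell zone of a lymph node, and builds fascin (Fscn1), which bundles actin into the long dendrites of these cells. Maturation also raises co-stimulatory proteins such as CD40, CD80 and CD86, and cytokines such as IL-12, whose p40 chain is encoded by Il12b. The programme runs largely through NF-κB, and it occurs both after microbial signals and spontaneously in culture.

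The libraries held 92002827 UMIs at 50 µM, 87611658 with DON and 89340379 in control, in 9817, 8962 and 10497 barcodes. Members had a median of 6312 UMIs at 50 µM, 8433 with DON and 6890 in control, and the other barcodes had 7973, 8128.5 and 6890.5. Between 20 and 31 barcode sequences were shared by any pair of libraries, and none of the shared ones was a member in both. A doublet score marked 14.8% of members at 50 µM, 12.9% with DON and 32.3% in control, but its threshold was lower in control. At 1 shared threshold, the lowest of the 3, 20.9%, 30.8% and 32.3% lay above it, and at the highest of the 3 these were 14.1%, 12.9% and 15.3%. Doublets were kept, and the results were recomputed without them in each of these ways.

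Mature cells made up a smaller share of both treated cultures. The share was 2.87% at 50 µM glutamine (277 of 9649 barcodes, exact interval 2.55 to 3.22%) and 3.84% with DON (341 of 8887, 3.45 to 4.26%), against 6.88% in control (713 of 10367, 6.40 to 7.38%). The 50 µM share was 0.417 times the control share and the DON share 0.558 times. Neither interval reached that of the control, and over 17 other settings the ratios stayed between 0.410 and 0.499 and between 0.553 and 0.682. A share says nothing of whether fewer cells matured or more of the other cells were present.

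Few barcodes lay near the limit of 3 markers on its upper side. Barcodes with all 7 markers numbered 157 at 50 µM, 166 with DON and 275 in control. Just inside the limit, with 3 markers, were 22, 28 and 56 barcodes, and just outside it, with 2 markers, were 223, 221 and 406. Barcodes with 4 markers, 9, 13 and 30, were the fewest in every library. Ccl5, which the rule did not use, summed to 135 CPM (UMIs of the gene per 1000000 UMIs summed over the barcodes) at 50 µM, 1231 with DON and 705 in control in the barcodes with 3 markers. In those with 2 markers it was at 35.0, 33.4 and 69.2 CPM.

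**Figure D1:**
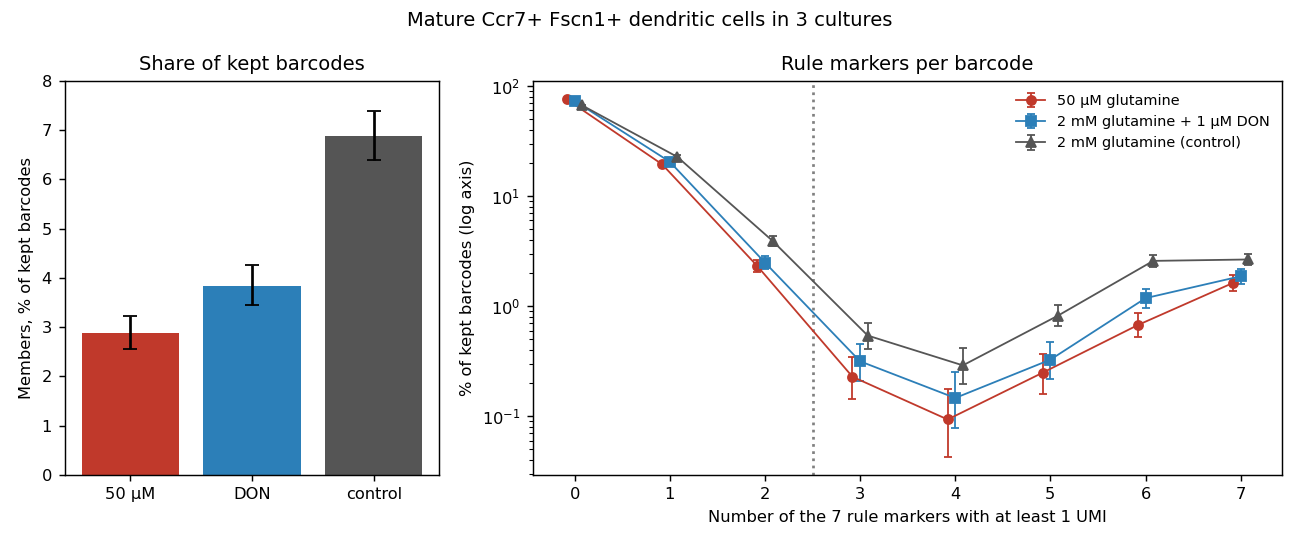
Left, members as a percentage of kept barcodes in each culture, with exact 95% intervals. Right, the percentage of kept barcodes (log axis) with 0 to 7 of the rule markers, with the limit as a dotted line. The control lies above both treated cultures at every marker number from 1 to 7, and every culture has its lowest point at 4 markers.

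Genes that the rule did not use are named below as a description of the members. The counts that come first cover all genes of at least 20 CPM and include the 7 rule markers. Of 6533 genes compared at 50 µM, 594 (9.09%) exceeded the level of the other barcodes 2-fold or more in members, and 506 (7.75%) lay 2-fold or more below it. With DON these were 446 (7.17%) and 76 (1.22%) of 6222, and in control 448 (7.4%) and 111 (1.83%) of 6054. In all 3 libraries alike, 386 genes were higher and 27 lower. The highest among genes outside the rule was Ccl5, a chemokine that draws T cells and monocytes, with 8926, 5446 and 8475 CPM in members against 25.8, 16.3 and 33.9 CPM in the other barcodes. It was followed by Serpinb6b and Serpinb9, inhibitors of serine proteases, Bcl2a1b, a survival gene of the BCL2 family with near-identical copies that share reads, Ramp3, a partner of calcitonin-type receptors, Mmp25, a membrane-bound metalloprotease, Traf1, an adaptor of TNF receptors, and Rgs1, a brake on chemokine receptor signalling.

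Other genes of mature cells were high as well. Cd83, a surface protein that marks mature dendritic cells, was at 649, 402 and 395 CPM in members against 6.64, 7.58 and 9.37 CPM elsewhere. Marcks, an actin-linked membrane protein, had 1764, 1428 and 1399 CPM against 68.6, 87.0 and 133 CPM. Relb, the NF-κB subunit tied to dendritic cell maturation, had 407, 341 and 331 CPM against 21.0, 14.4 and 14.9 CPM. By contrast Nfkb1 had 241, 252 and 237 CPM in members against 274, 236 and 200 CPM in the other barcodes, so this subunit gene hardly distinguished them. The checkpoint ligand gene Cd274 had 60.9, 62.6 and 70.6 CPM against 2.78, 2.98 and 3.39 CPM. Cd83, Marcks, Relb and Cd274 were thus higher in members of every library. Ccl5 and the genes named after it were ranked by these same data, so they are no test of the name given to the members. Members with only 3 markers at 50 µM had 3.64 CPM of Serpinb6b, against 5.45 with 2 markers and 898 with 7. Their Cd83 was at 197 CPM, against 20.5 with 2 markers and 750 with 7.

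Markers of other cell types were present in part of the members. At least 3 UMIs of the defining markers of plasmacytoid cells, monocytes or macrophages, neutrophils, B cells, T cells or basophils were found in 71 of 277 members at 50 µM (25.6%), 147 with DON (43.1%) and 214 in control (30.01%). In the other barcodes the shares were 58.6%, 64.0% and 52.9%. The cut of 3 UMIs was not adjusted for depth, and members were deepest with DON. Their median was 8433 UMIs there, against 6312 at 50 µM and 6890 in control. The 20 plasmacytoid genes summed to 1623, 2618 and 2083 CPM in members. The 18 neutrophil genes summed to 3622, 6715 and 1526 CPM, and the 5 members richest in them held 84.5%, 84.9% and 93.1% of those UMIs. Genes of the G2 and M phases summed to 3472, 4656 and 3112 CPM in members, while the median member was at 734, 769 and 689 CPM. Their part in the comparisons below was not tested beyond settings that leave such members out.

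The first comparison, 50 µM glutamine against control, asks how scarce glutamine during differentiation bears on the mRNA of mature cells. Redox genes, the co-stimulatory gene Cd40 and several NF-κB genes had higher values at 50 µM, and most genes of glycolysis and some other genes of the hypoxia response had lower ones. Of 5849 genes of at least 20 CPM in 1 of the libraries, 60 (1.03%) were 2-fold or more above control in members and 72 (1.23%) 2-fold or more below it. Ratios are log2 of (CPM + 5) in the treated over the control members. Their median over all 9588 genes of at least 5 CPM was 0.06, and 472 of these (4.92%) were 1.5-fold or more above control and 350 (3.65%) 1.5-fold or more below. The split of the 2-fold genes depended on the scaling: 31.5% of them were higher after TMM scaling and 33.6% after median-of-ratios scaling, against 45.5% after scaling to total UMIs. The median over the genes of at least 20 CPM was 0.06 after scaling to total UMIs and -0.06 after TMM scaling, so every 50 µM ratio is lower by about that difference with TMM.

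The second comparison was DON against control. Of 5763 genes, 20 (0.347%) were 2-fold or more above control and 12 (0.208%) 2-fold or more below, and the median over 9441 genes was 0.06. At 1.5-fold, 213 genes (2.26%) were higher and 101 (1.07%) lower. Of 49 genes of the G2 and M phases, 20 were at least 1.5-fold higher with DON and none lower. Their median was 0.54 in members and 0.39 in the other barcodes, and the difference was not tested. At 50 µM 3 of these 49 were higher, with a median of 0.21. With DON 10 of 14 neutrophil genes were higher and 1 lower. There 6 of 7 B lineage genes and 6 of 16 monocyte or macrophage genes were higher and none lower. After TMM scaling 46.9% of the 2-fold genes were higher, against 62.5% before. With marked doublets removed 205 genes were higher and 13 lower, against 54 and 38 at 50 µM, and without members holding 3 or more UMIs of other cell types 8 were higher and 24 lower with DON. Both comparisons share the control library, so the DON and 50 µM values are set side by side and not correlated.

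The rule markers varied by culture in a description that carries no test. Ccr7 (chr11:99144196-99155077, GRCm38) had 1671 CPM at 50 µM (interval 1619 to 1723), 1291 with DON (1258 to 1325) and 1319 in control (1294 to 1345). Fscn1 had 1437, 1185 and 1126 CPM. Il12b (chr11:44400063-44414033) had 615 CPM at 50 µM (584 to 648), 306 with DON (290 to 323) and 312 in control (299 to 324). The 50 µM culture alone stood high in Il12b, with a log2 ratio of 0.97, whereas the DON level lay within counting error of control at -0.03. After thinning each barcode to 2000 UMIs, Il12b was detected in 53.5% of members at 50 µM, 37.8% with DON and 36.2% in control, and in at most 0.0642% of the other barcodes.

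Ccl22, a chemokine that draws regulatory and helper T cells through CCR4, had 2578 CPM at 50 µM, 1701 with DON and 1281 in control, for log2 ratios of 1.01 and 0.41. Apol7c, an apolipoprotein L gene with similar neighbours that can share reads, had 3327, 2254 and 1778 CPM, for 0.90 and 0.34. In the other barcodes Apol7c had 27.9, 32.4 and 47.9 CPM, which is the opposite order. Cacnb3, a calcium channel subunit, had 462, 357 and 334 CPM. Socs2, a brake on cytokine signalling, had 400, 280 and 312 CPM. The 7 markers had a median log2 ratio of 0.46 at 50 µM, with 3 of 7 at least 1.5-fold higher, and of 0.07 with DON, with none. The 50 µM median depended on which barcodes were members: it was 0.09 with marked doublets removed, 0.25 at the lower shared doublet threshold and -0.01 with 2 markers required. With marked doublets removed the DON median was -0.39, and over 13 settings the DON ratios of Ccl22 and Apol7c went as low as -0.08 and -0.05.

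**Figure D2:**
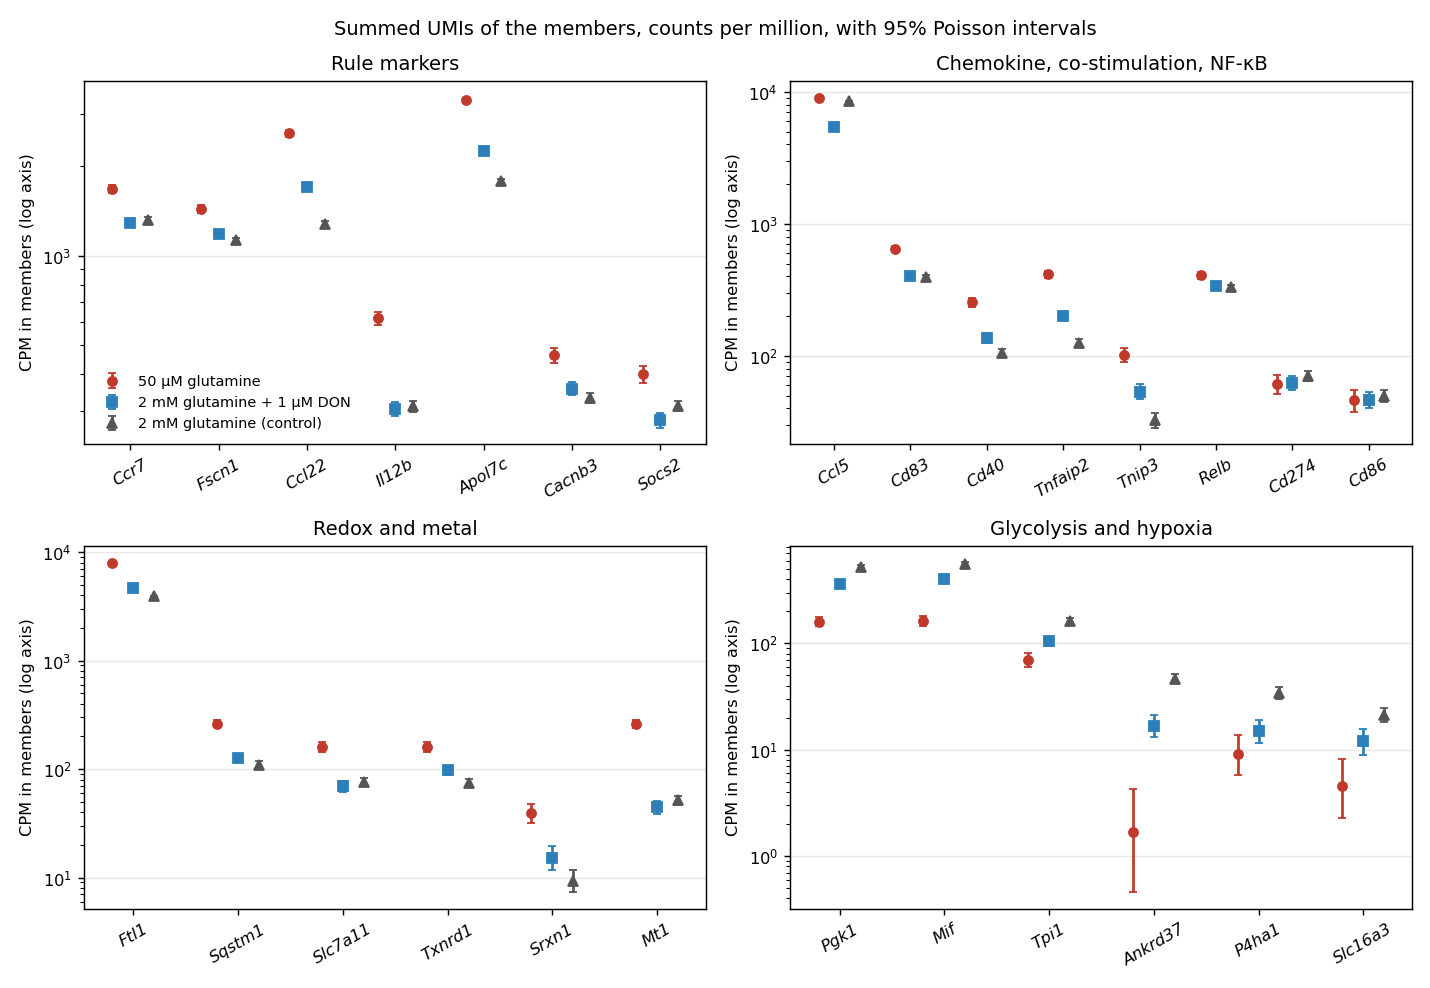
Summed UMIs of the members in CPM (log axis) for 27 genes in 4 groups, with exact Poisson intervals, for 50 µM glutamine, DON and control. Redox genes and most maturation genes are highest at 50 µM, and the 6 genes of glycolysis and hypoxia are lowest there, with DON in between.

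Chemokine genes did not follow 1 pattern. Ccl5 (chr11:83525778-83530518) was at 8926 CPM at 50 µM (8806 to 9046) and 5446 with DON (5377 to 5516), against 8475 in control (8411 to 8540). Only the DON culture stood low, at a log2 ratio of -0.64, while the 50 µM ratio was 0.07. The median member had 8318 CPM of Ccl5 at 50 µM, 2856 with DON and 6890 in control. Across 13 settings the DON ratio stayed between -1.11 and -0.49. Ccl17, the second ligand of CCR4, had 12.5 CPM at 50 µM (8.44 to 17.9), 40.3 with DON (34.5 to 46.7) and 35.5 in control (31.5 to 39.9). Its 50 µM log2 ratio was -1.21 with all members and -2.15 at the lower shared doublet threshold, although Ccl22 was higher at 50 µM. Of the 12 chemokine genes measured at 50 µM, 3 reached 1.5 times control and 3 lay 1.5-fold or more below it, with a median of 0.16 that ranged from -0.34 to 0.59 over 15 settings. With DON 2 of 11 were higher and 3 lower, with a median of 0.09.

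Co-stimulatory genes did not share 1 pattern either. Cd40, the receptor through which helper T cells license dendritic cells, had 254 CPM at 50 µM (235 to 276), 136 with DON (126 to 148) and 105 in control (98.2 to 113). Its log2 ratios were 1.23 and 0.36, and in the other barcodes they were 0.06 and 0.04. The 50 µM ratio lay between 0.75 and 1.36 over 13 settings. After thinning, Cd40 was found in 33.5% of members at 50 µM (27.9 to 39.4%), 24.9% with DON (20.4 to 29.9%) and 21.8% in control (18.8 to 25.1%), against 1.58%, 1.28% and 1.10% of the other barcodes.

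Cd83 had log2 ratios of 0.71 at 50 µM and 0.02 with DON, the first between 0.25 and 0.81 over 13 settings. In contrast Cd86, a ligand of CD28 and CTLA-4, had 45.9 CPM at 50 µM (37.7 to 55.3), 46.2 with DON (40.1 to 53.1) and 49.6 in control (44.8 to 54.8), with intervals that overlap. Cd80, the other such ligand, had 22.1, 18.4 and 26.7 CPM, and only the DON interval (14.6 to 22.9) missed that of control (23.2 to 30.6). Cd274 had ratios of -0.20 and -0.16. Il4i1, an enzyme that breaks down phenylalanine and damps T cells, had 783, 738 and 557 CPM, for 0.49 and 0.40.

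Several NF-κB genes had higher values at 50 µM. Of 24 measured, 5 were at least 1.5-fold higher and none lower, with a median of 0.38. With DON 2 of 23 were higher and none lower, with a median of 0.06, which was -0.19 with marked doublets removed. The same genes had medians of 0.26 at 50 µM and 0.02 with DON in the other barcodes, and the difference from members was not tested. Tnfaip2, a gene induced by TNF, had 415 CPM at 50 µM (390 to 442), 199 with DON (186 to 212) and 126 in control (118 to 134), for log2 ratios of 1.68 and 0.64. Tnip3, which binds the NF-κB inhibitor A20, had 102 CPM (89.4 to 115), 53.6 (47.0 to 61.0) and 32.5 (28.6 to 36.7), for 1.51 and 0.65. Both genes were in the order 50 µM, DON, control with no overlap of intervals, and every one of 13 settings kept Tnfaip2 at or above 1.28 at 50 µM and Tnip3 at or above 1.10. Tnfaip3, which encodes A20 itself, had 62.6, 44.0 and 40.0 CPM. Relb and Nfkb2 had 50 µM ratios of 0.29 and 0.37, and Nfkb1 of 0.03.

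Of 22 survival and apoptosis genes, 5 were at least 1.5-fold higher at 50 µM and none lower, with a median of 0.34, which was 0.10 with 2 markers required. With DON the median was 0.05, and -0.20 with marked doublets removed. The other barcodes had medians of 0.19 at 50 µM and 0.03 with DON for these genes, and the difference was not tested. Bcl2l1, which encodes the protective BCL-XL, had 43.0 CPM at 50 µM (35.1 to 52.1), 21.2 with DON (17.1 to 26.0) and 16.9 in control (14.2 to 20.1). Bcl2l11, which encodes the death factor BIM, was also higher at 50 µM, with 72.2 CPM (61.8 to 83.8), 35.9 with DON (30.5 to 42.0) and 41.2 in control (36.9 to 46.0). A protective and a death-promoting gene were therefore both highest at 50 µM. Cytokine genes had a median of 0.42 at 50 µM, with 4 of 14 higher and 1 lower, and of 0.07 with DON, with 1 of 12 higher. Il1b, a pro-inflammatory cytokine, had 127, 86.3 and 73.8 CPM. Il15, which sustains memory CD8 T cells and natural killer cells, had 51.3, 53.1 and 49.4 CPM with overlapping intervals, and its presenting receptor Il15ra had 87.6, 71.1 and 81.3 CPM.

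Targets of NRF2 (Nfe2l2), the factor that turns on antioxidant genes under oxidative stress, included many genes with higher values at 50 µM. Of 19 measured, 12 were at least 1.5-fold higher and none lower, with a median of 0.67 against 0.06 over all genes. With DON 1 of 18 was higher and none lower, with a median of 0.17. The other barcodes had medians of 0.35 at 50 µM and 0.10 with DON, and the difference from members was not tested. Ftl1, the ferritin light chain, had 7909 CPM at 50 µM (7797 to 8022), 4629 with DON (4566 to 4694) and 3893 in control (3849 to 3937). This gene has pseudogene copies that can share reads. Sqstm1, the autophagy receptor p62, had 262, 126 and 110 CPM, for log2 ratios of 1.22 and 0.19.

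Srxn1, which repairs oxidised peroxiredoxins, had 39.2 CPM at 50 µM (31.7 to 48.0), 15.2 with DON (11.7 to 19.3) and 9.29 in control (7.28 to 11.7), for 1.63 and 0.50. Slc7a11, the cystine and glutamate exchanger, had 161 CPM (145 to 178), 69.5 (61.9 to 77.8) and 76.6 (70.6 to 83), so only the 50 µM culture stood above control. Txnrd1, thioredoxin reductase, had 159, 97.1 and 74.8 CPM. Gclm and Gclc, the subunits of the enzyme that makes the glutathione precursor, had 63.0, 40.5 and 37.8 CPM and 85.5, 53.6 and 47.9 CPM. Nfe2l2 itself had 119, 91.1 and 75.2 CPM. Txnrd1 had a 50 µM ratio of 1.04, which was 0.43 with members thinned to 2000 UMIs, while the NRF2 median at 50 µM lay between 0.56 and 0.81 over 15 settings.

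Mt1, a metallothionein that binds zinc and copper and is itself responsive to metals and stress, had a 50 µM ratio second only to that of the neutrophil gene Mpo among named genes of at least 50 CPM. It had 260 CPM at 50 µM (240 to 282), 44.4 with DON (38.4 to 51.1) and 51.4 in control (46.5 to 56.7), for log2 ratios of 2.23 and -0.19. In the other barcodes it had 50.0, 43.8 and 49.0 CPM, with a 50 µM ratio of 0.03. It was found in 20.7% of thinned members at 50 µM, 8.21% with DON and 8.17% in control, against 7.93%, 7.34% and 7.55% of the other barcodes. Members with Il12b had 325 CPM of Mt1 at 50 µM and those without it 120 CPM. The ratio ranged between 1.35, with 2 markers required, and 2.64 over 13 settings.

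Some targets of ATF4, the factor of the amino acid shortage response, had higher values at 50 µM. Of 32 measured, 9 were at least 1.5-fold higher and none lower. Their median was 0.39 in members, between 0.16 and 0.59 over 15 settings, and 0.69 in the other barcodes, a difference that was not tested. With DON 4 of 31 were higher and 1 lower, with medians of 0.11 and 0.08. Asns, asparagine synthetase, which uses glutamine, had 20.9 CPM at 50 µM (15.5 to 27.5), 3.22 with DON (1.76 to 5.41) and 1.53 in control (0.789 to 2.67). The other barcodes had 62.5, 4.33 and 4.44 CPM. Atf5, a second factor of this response, had 43.8, 20.2 and 11.1 CPM, with log2 ratios of 1.60 and 0.65. Phgdh, which opens the pathway to serine, had 52.1, 29.0 and 15.4 CPM. Its 50 µM ratio of 1.49 was 0.28 with marked doublets removed, and its DON ratio of 0.74 was -0.45 without members holding UMIs of other cell types.

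**Figure D3:**
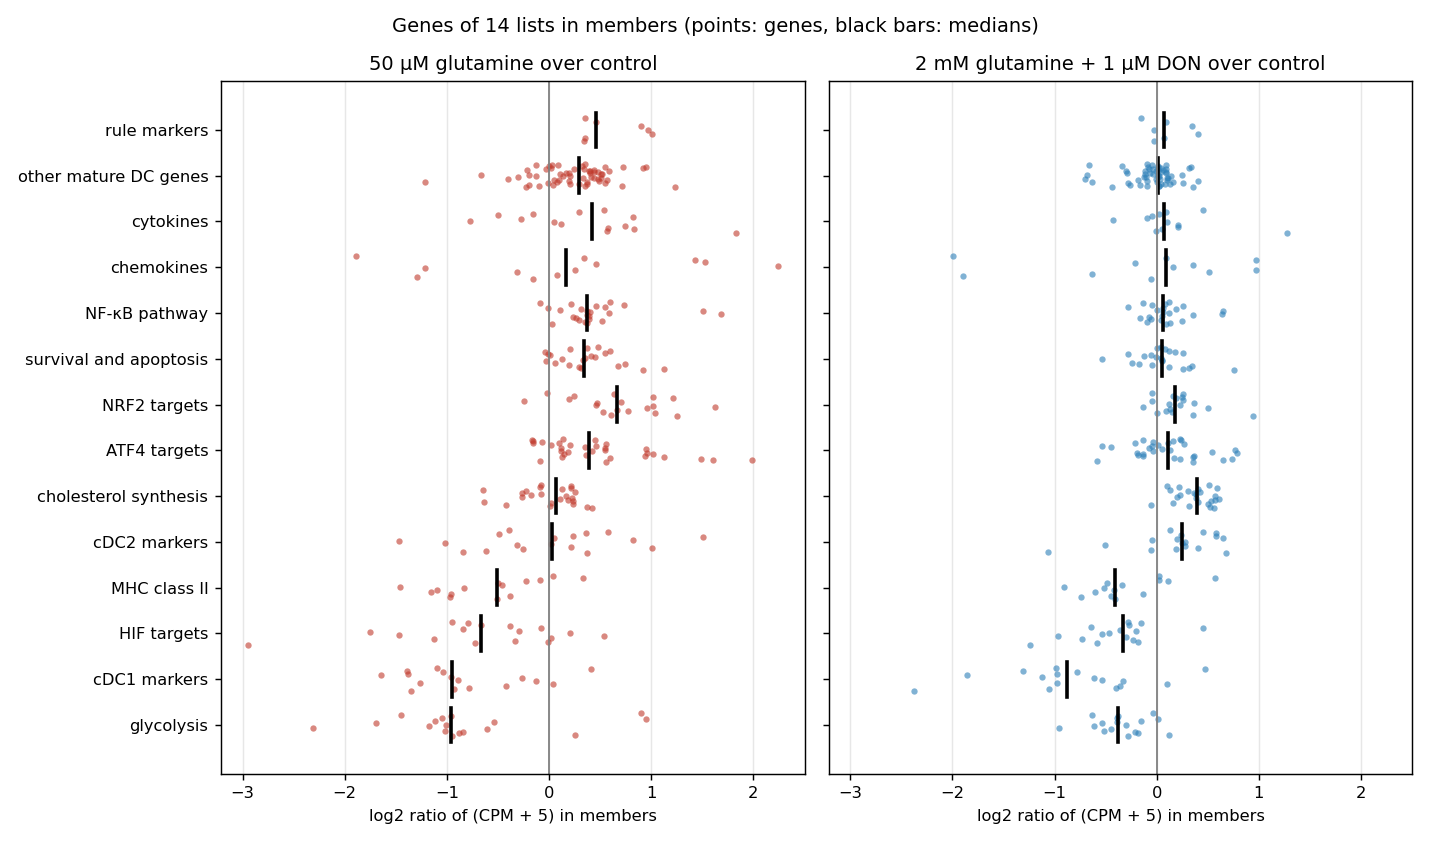
The log2 ratio of each measured gene (point) of 14 lists in members, for 50 µM glutamine and for DON over control, with the median of each list as a black bar. At 50 µM the points of the NRF2 list lie mostly right of 0 and those of glycolysis mostly left of -0.5. With DON most of these 14 lists centre near 0.

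Most genes of glycolysis had lower values at 50 µM. Of 17 measured at 50 µM, 13 were at least 1.5-fold lower and 2 higher, with a median of -0.96. With DON 3 of 17 were lower and none higher, with a median of -0.37. Pgk1, phosphoglycerate kinase, had 160 CPM at 50 µM (144 to 177), 362 with DON (344 to 380) and 527 in control (511 to 544), for log2 ratios of -1.69 and -0.54. It was found in 21.5% of thinned members at 50 µM, 42.5% with DON and 54.8% in control, and the other barcodes had 25.8%, 43.5% and 56.5%. Tpi1, triosephosphate isomerase, had 69.7, 105 and 163 CPM. Slc16a3, the lactate exporter MCT4, had 4.59 CPM (2.29 to 8.21), 12.0 (8.94 to 15.7) and 21.3 (18.1 to 24.7). Aldoc, an aldolase, had 3.75, 17.5 and 38.6 CPM, and its DON ratio of -0.95 was -0.08 with marked doublets removed. In all of these the DON value lay between the other two.

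The 2 glycolysis genes at least 1.5-fold higher at 50 µM were Eno2 and Pfkfb3, of which Pfkfb3 was named after its values were seen. Eno2, the neuronal enolase, had 29.6 CPM at 50 µM (23.1 to 37.4), 13.1 with DON and 13 in control, against at most 0.147 CPM in the other barcodes of any library. Pfkfb3, which makes the activator of phosphofructokinase, had 443 CPM (416 to 470), 228 (214 to 243) and 234 (224 to 245), against 10.5, 11.4 and 16.8 CPM in the other barcodes. Both were far higher in members than in other barcodes. Their log2 ratios of 50 µM over control in members were 0.94 and 0.90.

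Other targets of HIF, the hypoxia-inducible factor that also drives most glycolytic genes, had a median of -0.66 at 50 µM, with 9 of 17 lower and none higher. With DON 5 of 16 were lower and none higher, with a median of -0.33. Ankrd37, a small ankyrin protein gene induced by hypoxia, had 1.67 CPM at 50 µM (4 UMIs, 0.455 to 4.27), 16.8 with DON (13.2 to 21.1) and 46.6 in control (41.9 to 51.6). Its log2 ratios were -2.95 and -1.24, and no setting brought them above -2.28 and -0.64. Mif, a cytokine gene that hypoxia raises and that has pseudogene copies, had 163, 405 and 560 CPM, for -1.75 and -0.46. P4ha1, a collagen prolyl hydroxylase, had 9.18, 15 and 34.1 CPM, and Bnip3, a mitophagy receptor, 14.6, 16.6 and 27.4 CPM. The other barcodes also had lower values, with 50 µM medians of -0.72 for glycolysis and -0.52 for HIF targets, and the difference from members was not tested. The glycolysis median at 50 µM lay between -1.15 and -0.75 over 15 settings, and that of HIF targets between -0.79 and -0.33.

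Promoters are shown for some genes of these lists that were at least 1.5-fold higher or lower at 50 µM and hold a motif of HIF, NRF2 or NF-κB. HIF binds around the letters ACGTG and NRF2 around TGACNNNGC, and kappa-B motifs are bound by NF-κB. The 250 bases before the start of each gene are from RefSeq (GRCm38.p6), 5′ to 3′ on the strand of the gene, with matches on either strand in capitals. The first 3 are the hypoxia core in Ankrd37 (chr8:45999851-46000100, minus strand), Pgk1 (chrX:106186850-106187099, plus strand) and Slc16a3 (chr11:120948817-120949066, plus strand), the next 2 the antioxidant core in a start of Txnrd1 (chr10:82858956-82859205, plus strand) and in Gclm (chr3:122245307-122245556, plus strand), and the last the kappa-B motif in Tnip3 (chr6:65590148-65590397, plus strand).
Ankrd37: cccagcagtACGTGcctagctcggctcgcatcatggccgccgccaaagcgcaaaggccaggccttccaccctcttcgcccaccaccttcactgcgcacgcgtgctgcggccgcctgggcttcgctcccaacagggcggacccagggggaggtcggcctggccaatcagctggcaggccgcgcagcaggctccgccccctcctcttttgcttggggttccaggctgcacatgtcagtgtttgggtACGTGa
Pgk1: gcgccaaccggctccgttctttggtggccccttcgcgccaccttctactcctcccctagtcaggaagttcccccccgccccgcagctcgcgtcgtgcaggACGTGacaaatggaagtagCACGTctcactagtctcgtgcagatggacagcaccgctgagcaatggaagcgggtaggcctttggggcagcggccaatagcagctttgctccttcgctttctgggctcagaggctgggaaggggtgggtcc
Slc16a3: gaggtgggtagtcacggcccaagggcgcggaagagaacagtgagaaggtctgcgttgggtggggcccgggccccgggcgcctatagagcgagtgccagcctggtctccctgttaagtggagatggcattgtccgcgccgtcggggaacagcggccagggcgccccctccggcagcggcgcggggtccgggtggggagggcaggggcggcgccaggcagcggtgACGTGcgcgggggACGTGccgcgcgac
Txnrd1: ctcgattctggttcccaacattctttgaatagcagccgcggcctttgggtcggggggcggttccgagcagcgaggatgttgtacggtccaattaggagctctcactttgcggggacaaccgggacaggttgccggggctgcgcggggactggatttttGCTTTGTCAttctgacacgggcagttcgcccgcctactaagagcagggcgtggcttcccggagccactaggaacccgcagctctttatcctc
Gclm: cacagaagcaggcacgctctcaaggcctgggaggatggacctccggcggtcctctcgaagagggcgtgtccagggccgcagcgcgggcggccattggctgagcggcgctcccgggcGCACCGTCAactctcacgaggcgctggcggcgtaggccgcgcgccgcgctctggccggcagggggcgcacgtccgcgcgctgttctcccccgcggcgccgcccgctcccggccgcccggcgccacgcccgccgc
Tnip3: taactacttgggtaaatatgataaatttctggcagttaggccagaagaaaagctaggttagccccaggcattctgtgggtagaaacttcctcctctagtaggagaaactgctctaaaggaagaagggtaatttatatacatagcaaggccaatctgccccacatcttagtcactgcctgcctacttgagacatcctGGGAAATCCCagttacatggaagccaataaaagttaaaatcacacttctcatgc

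The hypoxia core was in the promoters of 11 of 20 glycolysis genes (55.0%) and 12 of 18 matched HIF targets (66.7%), lists that share Slc2a1, and in 18.5% of 27025 genes. The antioxidant core was in 5 of 16 matched NRF2 targets (31.2%) and in 11.5% of all genes. The kappa-B motif was in 8 of 20 matched NF-κB genes (40.0%), in none of the 5 matched rule markers and in 4.46% of all genes. Other lists held the antioxidant core and the kappa-B motif as often. The antioxidant core was in 38.5% of matched cDC1 genes, and the kappa-B motif in 44.4% of matched chemokine and 43.8% of matched cytokine genes. A metal response core (TGCACNC or TGCGCNC on either strand) was in 55.0% of glycolysis genes, 55.6% of matched HIF targets and 23.8% of all genes. Per single promoter of 32851 the shares were 16.6% for the hypoxia core, 10.2% for the antioxidant core, 21.4% for the metal core and 3.90% for the kappa-B motif. A gene with several starts counts once if any of its promoters matches. Such a match describes the letters of the promoter and shows no binding.

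Some MHC class II genes, which present antigen to CD4 T cells, had lower values in both treatments as summed over members. Of 14 measured, 6 were at least 1.5-fold lower at 50 µM and none higher, with a median of -0.51, and with DON 3 were lower, with a median of -0.41. H2-Ab1 had 1157 CPM at 50 µM (1114 to 1201), 1353 with DON (1318 to 1388) and 2268 in control (2234 to 2301). H2-DMb1, a chain of the peptide-loading factor, had 124, 184 and 283 CPM, and H2-Ob, a chain of its regulator, 10.4, 17.5 and 37.3 CPM. The median member had a summed class II level of 9453 CPM at 50 µM, 10767 CPM with DON and 9736 CPM in control, so the low sums of the treated cultures were not matched in the median member. In the other barcodes this median was 3158, 7280 and 14766 CPM. Without barcodes above the lower shared doublet threshold the list medians were -0.10 and 0.09. With marked doublets removed the H2-Ab1 ratios of -0.97 and -0.74 were -0.29 and -0.02.

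Genes of type 1 conventional dendritic cells (cDC1), which cross-present antigen to CD8 T cells, mostly had lower values as well. Of 16 measured, 11 were at least 1.5-fold lower at 50 µM and 10 with DON, none was higher, and the medians were -0.95 and -0.88. The other barcodes had medians of -1.51 at 50 µM and -0.76 with DON for these genes, and the difference from members was not tested. Naaa, an acid amidase, had 45.9 CPM at 50 µM (37.7 to 55.3), 39.1 with DON (33.5 to 45.5) and 155 in control (146 to 164). Xcr1, the receptor for XCL1, had 11.3 CPM (7.42 to 16.4), 2.99 (1.59 to 5.12) and 36.4 (32.3 to 40.9), so it was lowest with DON. Sept3, a septin, had 22.5, 24.2 and 67.1 CPM. Batf3 and Irf8, the factors that cDC1 require, were closer, with 99.7, 104 and 135 CPM and with 1164, 1214 and 1130 CPM. Batf3 was higher in members than in the other barcodes of every library, which had 6.54, 24.8 and 43.7 CPM. The list medians were -0.49 and -0.27 without barcodes marked as doublets, and -1.72 and -1.16 without members holding 3 or more UMIs of other cell types.

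Genes of type 2 cells (cDC2) had medians of 0.03 at 50 µM and 0.25 with DON. Of 18 measured at 50 µM, 3 were at least 1.5-fold higher and 4 lower, and with DON 2 of 17 were higher and 1 lower. Tnip3, given above with the NF-κB genes, is also in this list and among its higher genes in both comparisons. Sirpa, an inhibitory receptor of cDC2, had 81.3 CPM at 50 µM (70.3 to 93.6), 102 with DON (92.2 to 111) and 61.6 in control (56.2 to 67.3). Irf4, a factor of cDC2 and of mature cells, had 26.3, 16.8 and 26.0 CPM. The DON median was 0.88 with marked doublets removed and 0.54 at the lower shared threshold. Cholesterol synthesis genes had medians of 0.06 at 50 µM and 0.39 with DON, where 2 of 24 were at least 1.5-fold higher and none lower. Hmgcs1, the enzyme ahead of HMG-CoA reductase, had 134, 149 and 99.2 CPM, and Sqle, squalene epoxidase, 43.4, 58.2 and 37.5 CPM. The DON median of this list lay between 0.33 and 0.52 over 15 settings. In the other barcodes the cholesterol synthesis genes had medians of -0.44 at 50 µM and 0.28 with DON, and the difference from members was not tested.

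**Figure D4:**
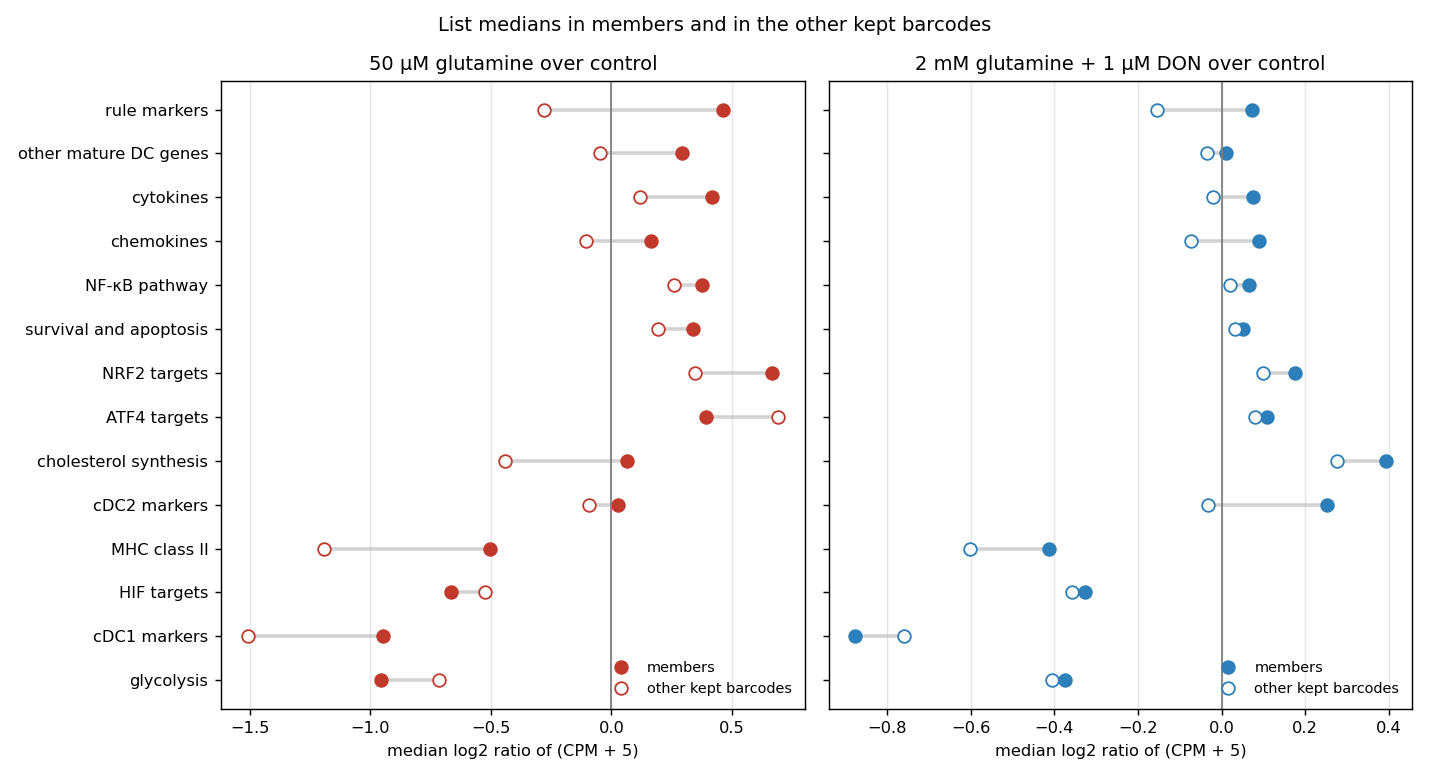
Median log2 ratio of 14 lists in members (filled) and in the other kept barcodes (open), for 50 µM glutamine and for DON over control. At 50 µM the rule markers and other mature genes lie right of 0 in members and left of 0 in other barcodes, while glycolysis and HIF targets lie left of 0 in both.

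The genes with the largest ratios, by a rule that took the 8 highest and 8 lowest of at least 50 CPM, included many of the neutrophil and myeloid precursor lineage. At 50 µM the highest were Mpo, Mt1, Ltf, Lcn2, Prtn3, Tnfaip2, Ngp and Tnip3. Mpo, myeloperoxidase, had 69.2 CPM at 50 µM, 2.53 with DON and 2.55 in control, but 78.2, 27.7 and 28.4 CPM in the other barcodes. Without members holding UMIs of other cell types its 50 µM ratio of 3.30 was 0.91. It was found in 2.18% of thinned members at 50 µM, 0.587% with DON and 0.141% in control, against 4.01%, 1.04% and 0.962% of the other barcodes. With DON the highest were Camp, Ngp, Ltf, S100a8, Lcn2, S100a9, Ctla2a and Nrgn, of which the first 6 are neutrophil granule or calprotectin genes. S100a8 had 1286, 2728 and 621 CPM in members and 1416, 2423 and 1651 CPM elsewhere. The 5 richest members carried most of these UMIs, as given above. Without members holding 3 or more UMIs of other cell types the S100a8 ratio with DON was 0.05, against 2.13 with all members.

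The lowest genes at 50 µM were Plbd1, Mif, Tubb2b, Pgk1, Jaml, Naaa, Tep1 and Ly6a. Plbd1, a lysosomal phospholipase B type protein, had 29.6 CPM at 50 µM (23.1 to 37.4), 45.8 with DON (39.6 to 52.6) and 124 in control (116 to 132). Its 50 µM ratio of -1.89 was -1.05 with marked doublets removed. Tubb2b, a beta tubulin, had 12.9, 49.7 and 54.2 CPM, so only the 50 µM value was low. Ly6a, the surface protein Sca-1 that interferon induces, had 116, 292 and 349 CPM, and 357, 731 and 874 CPM in the other barcodes. With marked doublets removed its 50 µM ratio of -1.55 was -0.95. With DON the lowest were Naaa, Plbd1, Sept3, Pkib, Ckb, Ppt1, Fgl2 and Rab7b. Pkib, an inhibitor of protein kinase A, had 56.7, 59.8 and 139 CPM, low in both treatments, and its ratios stayed between -1.43 and -1.14 at 50 µM and between -1.46 and -1.01 with DON over 13 settings.

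The 60 other genes of mature cells, a list chosen with earlier results of these data known, had medians of 0.29 at 50 µM (-0.09 with 2 markers required), with 5 of 59 higher and 2 lower, and of 0.01 with DON, with none of 58 higher and 4 lower. Among them with higher values at 50 µM was Arl5c, an ARF-like GTPase gene, with 334, 218 and 174 CPM. Rgs1, outside this list, had 485, 265 and 294 CPM. Serpinb6b was lowest at 50 µM, with 627, 723 and 777 CPM. Stat4, which carries the IL-12 signal, had 191, 135 and 166 CPM. Marcks, Traf1 and Serpinb9 had 50 µM ratios of 0.33, 0.38 and 0.14.

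Members differed among themselves in Il12b. It was detected in 201 members at 50 µM, 216 with DON and 415 in control, and not in 76, 125 and 298. Because it is a rule marker, every member with all 7 markers, 157, 166 and 275 barcodes, is on the detected side. The 2 sides therefore also differ in the number of rule markers, which the rule fixes in part. The part of this in the values below was not tested, and the comparison is a description. The median depth of the detected members was 6199, 8110.5 and 6755 UMIs, against 7009, 9357 and 7075.5 UMIs in the others. The other mature genes had a median log2 ratio of Il12b-detected over undetected members of 0.76 at 50 µM, 0.61 with DON and 0.34 in control. Ccr7 had 2019, 1645 and 1552 CPM with Il12b and 917, 730 and 993 CPM without it. Stat4 had 239, 187 and 197 CPM against 87.1, 51.2 and 122 CPM. Ccl22 was lower with Il12b in DON and control but not at 50 µM, with 2729, 1603 and 1132 CPM against 2251, 1855 and 1488 CPM. Ccl17 was lower with Il12b in every library, with 7.93, 11.3 and 20.1 CPM against 22.4, 86.2 and 57.1 CPM. Class II genes had medians of -0.54 at 50 µM, with 5 of 14 at least 1.5-fold lower and 2 higher, of -0.55 with DON, with 7 lower, and of -0.25 in control, with none in either direction. S phase genes had medians of -0.49 at 50 µM, with 17 of 39 lower, of -0.49 with DON, with 13 of 39 lower, and of -0.26 in control, with 2 of 38 lower. The share of all genes 1.5-fold apart was not taken for this split, so these counts have nothing to be set against. Counting error is also larger where fewer members lacked Il12b, 76 at 50 µM and 125 with DON against 298 in control. The counts are therefore not compared between libraries. Cd40 at 50 µM was close in both kinds, at 254 and 256 CPM, so the 50 µM culture stood above control in Cd40 among members of either kind, whose control levels were 117 and 89.4 CPM.

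**Figure D5:**
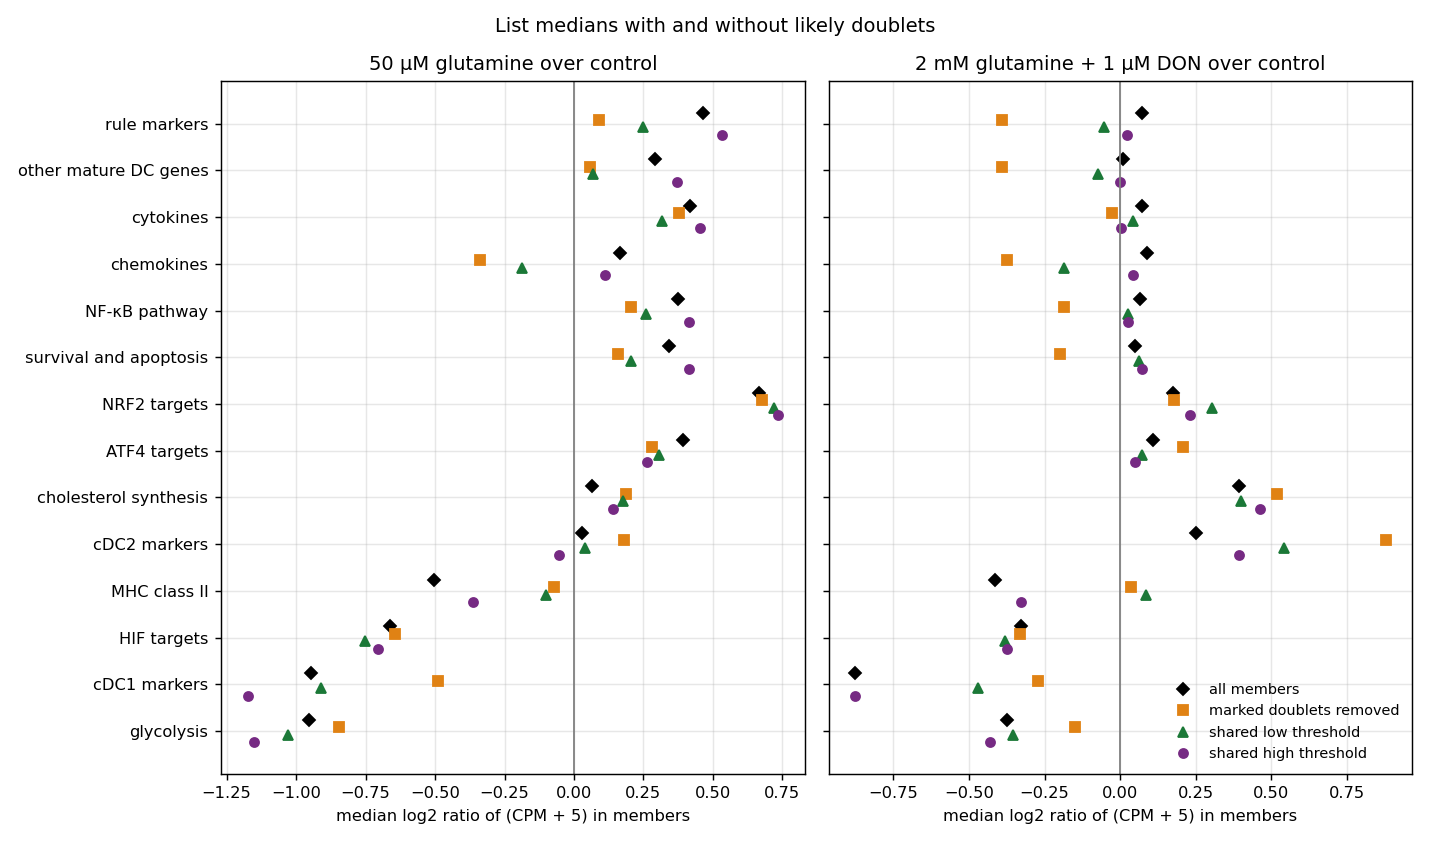
List medians in members for 50 µM glutamine and DON over control, with all members and after removing likely doublets in 3 ways. NRF2, HIF and glycolysis medians keep their side of 0 in all 4 settings in both comparisons. The medians that change side with DON include those of rule markers, other mature genes, NF-κB, survival and MHC class II.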

How the data were processed

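The authors deposited UMI counts of 32285 genes per barcode for 3 libraries, 1 per condition, made by Cell Ranger with the Single Cell 3' v3 kit. The file headers name Cell Ranger 6.0.0 and the submitters' processing notes 3.1.0, with build mm10. The depth of each library is given in the report, and intervals and floors cover counting error only. Barcodes were filtered and members chosen as described there. Members and gene lists were chosen with earlier results of these data known.

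UMIs were summed over the members of a library and scaled to CPM, and ratios used a pseudocount of 5 CPM. The floor was 20 CPM in either library for counts of genes and 5 CPM for lists. A gene can stand in several lists and is counted in each, so the lists are not independent. Among genes at least 1.5-fold higher at 50 µM, Tnip3 is in the NF-κB and cDC2 lists and Cflar in the NF-κB and survival lists. Slc7a11 is in the NRF2 and ATF4 lists, and Eno2 in the glycolysis and other mature gene lists. Shares of members with a UMI were taken after thinning to 2000 UMIs, which left out 2 members at 50 µM, none with DON and 3 in control, with exact Clopper-Pearson intervals. CPM have exact Poisson intervals at 95%. With 1 library per condition there was no test and no p-value.

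Named genes are the 7 rule markers, the 8 highest and 8 lowest ratios per treatment among genes of at least 50 CPM, up to 4 genes of each list of at least 20 CPM, the 15 genes highest over other barcodes and a fixed set of maturation, lineage and metabolic genes. Pfkfb3 was named outside it after its values were seen.

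Doublets were scored with a Scrublet-type method (2 simulated doublets per barcode, expected rate 0.08, 2000 variable genes, 30 components). The thresholds were 0.288 at 50 µM, 0.300 with DON and 0.198 in control. The alternatives with 1 shared threshold were chosen after seeing the data. Other alternatives changed the marker number, barcode filter, depth, pseudocount, floor, scaling (edgeR 4.0.16 TMM and DESeq2 1.42.0 size factors) and weight of cells. Counting of changed genes was tested on simulated data. Positions are from GENCODE (GRCm38), matched for 99.6% of genes, and promoters from RefSeq (GRCm38.p6). Python 3.11.15, NumPy 2.4.6, SciPy 1.17.1, pandas 2.3.3, scikit-learn 1.9.0 and R 4.3.3 were used.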

Additional observations from a re-analysis of the deposited data

Results flagged for a closer look

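The rule markers stood out because members and other barcodes lay on opposite sides of the control. Their median log2 ratio at 50 µM glutamine was 0.46 in members and -0.28 in the other barcodes. Apol7c showed the same, with 0.90 in members and -0.69 in the other barcodes. The difference between members and other barcodes was not tested, because each condition was 1 library, and the rule itself places barcodes with many of these markers among the members.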

How the results depend on the processing

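No paired analysis was possible because each condition had 1 library. Values below are shares of members, numbers of genes 2-fold or more above or below control, and list medians on the log2 scale. The shared-threshold settings were added after seeing the data, and the cause of each difference was not tested. With at least 2 of 7 markers the shares were 5.18% at 50 µM, 6.32% with DON and 10.8% in control. There were 95 higher genes at 50 µM, and the 50 µM medians were -0.014 for rule markers and -0.086 for other mature genes, both on the other side of 0, 0.23 for NF-κB, 0.10 for survival and 0.59 for ATF4. The DON medians were -0.069 for other mature genes and 0.082 for cDC2.

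With marked doublets removed the share was 2.55% at 50 µM and 5.10% in control. At 50 µM 38 genes were lower, Clec9a was on the other side of 0 at 0.0063, and the medians were 0.091 for rule markers, 0.058 for other mature genes, 0.20 for NF-κB and -0.072 for MHC class II. With DON 205 genes were higher and H2-DMb1 was on the other side at 0.49. DON medians were -0.39 for rule markers, -0.39 for other mature genes, -0.19 for NF-κB, 0.037 for MHC class II (other side), -0.20 for survival, -0.15 for glycolysis, -0.27 for cDC1 and 0.88 for cDC2. At the lowest shared threshold the shares were 2.41%, 2.83% and 5.10%, and the 50 µM medians 0.25 for rule markers, 0.068 for other mature genes and 0.26 for NF-κB. There 52 genes were higher with DON, and the DON medians were -0.072 for other mature genes, 0.087 for MHC class II (other side), 0.30 for NRF2 and 0.54 for cDC2. At the highest shared threshold the control share was 6.19% and the 50 µM glycolysis median -1.15.

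With at least 2000 UMIs, 1000 genes and at most 5% mitochondrial UMIs the shares were 3.42%, 4.42% and 7.78%. Thinned to 2000 UMIs they were 3.42% with DON and 5.97% in control. The control share was 6.34% with at least 4 markers and 6.31% with Ccr7 and Fscn1 both required. At a floor of 50 CPM, 26 genes were higher and 45 lower at 50 µM, and 12 and 5 with DON. With members thinned to 2000 UMIs, 117 genes were higher at 50 µM and the rule markers had 0.25, while with DON 87 were higher and 27 lower and NRF2 had 0.31. Without members holding 3 or more UMIs of other cell types, Camp was on the other side at 50 µM at -0.21 and Phgdh with DON at -0.45. The 50 µM medians there were 0.32 for rule markers, 0.25 for cholesterol synthesis and -1.72 for cDC1. With DON 8 genes were higher and 24 lower, with medians of 0.19 for other mature genes, 0.19 for NF-κB, 0.19 for survival and -1.16 for cDC1. By the mean of per-cell CPM, the 50 µM medians were 0.28 for rule markers and 0.25 for NF-κB, and with DON 38 genes were higher, 7 lower and NRF2 had 0.27. TMM scaling gave 0.27 for NF-κB at 50 µM and -0.063 for other mature genes with DON. With DON, 34 genes were higher and 19 lower at a pseudocount of 1 CPM, 13 were higher at 10 CPM, 31 higher and 23 lower with no floor, and 34 higher without the 5% of members with most UMIs. Another 379 list medians stayed within the 95% rank interval of the median over the genes of the list. Of single-gene ratios, 1517 stayed within counting error, 845 moved beyond it and 4, those named above, changed side among ratios of at least 1.5-fold. Smaller ratios could also cross 0 and are not counted among these 4. A gene with under 3 UMIs in a library is beneath what these depths resolve.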
